A study of Homo sapiens with 41 samples.

Results

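Interferon-stimulated genes were followed as a set of 47 human genes, chosen by symbol because they are known to be induced by interferon, out of 23586 symbols listed in the 6 tables of the study. The study sequenced RNA of human cancer cells given a drug against their driver kinase, in culture and in tumours grown in mice, and of drug-resistant cells growing in different tumours. In culture, the melanoma line A375 received vehicle, or 6 h or 48 h of 0.1 µM vemurafenib, an inhibitor of mutant BRAF kinase. Each of these groups had 3 libraries, and the same vehicle libraries served both times. The melanoma lines Colo800 and UACC62 received vehicle or 48 h of 1 µM vemurafenib, with 2 libraries in each group. The lung adenocarcinoma line H3122 received vehicle or 48 h of 0.3 µM crizotinib, an inhibitor of ALK kinase, with 2 libraries in each group. The labels as read gave no time for vehicle cultures, so drug and time in culture cannot be told apart. Cultures gave whole-cell RNA. Tumours were grown under the skin of mice from A375, with 4 vehicle and 4 vemurafenib libraries, and from A375R, its vemurafenib-resistant derivative. A375R was injected alone or mixed with A375, as the sample names and the growth protocol were read, with 3 vehicle and 3 vemurafenib libraries of each kind. Treated mice received 10 doses of 75 mg/kg vemurafenib. Tumours gave ribosome-bound RNA, pulled from lysates with beads against GFP, and the names carry RPL10a, a ribosomal protein. The labels do not say whose ribosomes were tagged in a mixed tumour, which mouse strain was used, or whether replicate libraries stem from distinct cultures or mice, so that p-values measure only the spread between these libraries, which may be technical. A375R and each sensitive line stand for 1 cell line each.

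Type I interferons bind the receptor pair IFNAR1 and IFNAR2 and activate the kinases JAK1 and TYK2. These phosphorylate STAT2, which joins IRF9 in the ISGF3 complex, and the complex binds the interferon-stimulated response element in the promoters of antiviral genes. Many of these genes carry out the cell's defence against viral RNA, and STAT2, IRF9 and IRF7 are themselves induced and feed back on the pathway. In tumours the same genes are known from responses to cytosolic nucleic acid and to interferon from neighbouring cells.

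Recovered depth was between 8063754 and 42843612 reads per library, and members took between 0.0650% and 0.351% of the reads of a library, so that several members rest on few reads. A readout of MAPK signalling, the pathway the drugs act on, was checked: 7 of 7 genes (DUSP6, SPRY2, SPRY4, ETV4, ETV5, EGR1 and CCND1) were lower with drug in each sensitive culture, 6 of 7 in A375 tumours and 0 of 7 in A375R tumours grown alone. Of 8 melanoma markers, between 4 and 8 had a mean of at least 10 in the melanoma cultures, but 3 in vehicle A375 tumours and 3 or 4 in A375R tumours. H3122 vehicle cultures had 10 of 12 lung epithelial markers at that level. The 6 tables were normalised separately, so a level is compared only within a table. The library kit does not keep the strand, and genes of related families may share reads, above all the near-identical IFITM1, IFITM2 and IFITM3. In these bulk samples, fewer cells of a type and less RNA per cell cannot be told apart.

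The promoters of the genes to which the results below return most often were read from RefSeq on GRCh38.p14, from 250 bases before the annotated start to 50 bases after it. The first 3 belong to genes that were higher both in vemurafenib-treated A375 cultures and in mixed A375R tumours, and the last 2 to the factors STAT2 and IRF9. Capitals mark GAAANNGAAA, a core of the interferon-stimulated response element, searched on both strands, and overlapping matches run together.
IFIT1, chr10:89392373-89392672, plus strand: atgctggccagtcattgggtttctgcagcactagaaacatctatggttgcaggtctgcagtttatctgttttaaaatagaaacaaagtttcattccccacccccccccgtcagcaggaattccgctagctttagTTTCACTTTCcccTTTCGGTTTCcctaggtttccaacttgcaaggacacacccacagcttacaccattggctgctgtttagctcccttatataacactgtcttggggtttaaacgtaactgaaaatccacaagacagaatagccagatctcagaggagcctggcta
BST2, chr19:17405581-17405880, minus strand: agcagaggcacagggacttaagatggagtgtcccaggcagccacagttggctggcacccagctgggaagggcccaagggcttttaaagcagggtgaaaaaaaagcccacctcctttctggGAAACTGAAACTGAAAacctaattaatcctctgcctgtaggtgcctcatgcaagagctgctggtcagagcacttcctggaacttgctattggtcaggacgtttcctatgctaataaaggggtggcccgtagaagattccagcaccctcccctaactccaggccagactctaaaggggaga
IFITM1, chr11:313790-314089, plus strand: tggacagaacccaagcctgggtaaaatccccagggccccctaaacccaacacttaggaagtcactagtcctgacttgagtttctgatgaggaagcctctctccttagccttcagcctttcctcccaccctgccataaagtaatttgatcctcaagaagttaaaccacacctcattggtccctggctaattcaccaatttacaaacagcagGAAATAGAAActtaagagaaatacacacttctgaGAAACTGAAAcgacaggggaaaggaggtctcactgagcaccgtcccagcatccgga
STAT2, chr12:56360058-56360357, minus strand: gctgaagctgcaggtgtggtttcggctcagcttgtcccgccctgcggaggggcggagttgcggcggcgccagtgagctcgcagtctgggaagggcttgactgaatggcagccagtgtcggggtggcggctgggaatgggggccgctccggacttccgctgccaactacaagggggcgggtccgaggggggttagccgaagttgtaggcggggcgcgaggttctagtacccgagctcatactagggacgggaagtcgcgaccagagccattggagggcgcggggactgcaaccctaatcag
IRF9, chr14:24161015-24161314, plus strand: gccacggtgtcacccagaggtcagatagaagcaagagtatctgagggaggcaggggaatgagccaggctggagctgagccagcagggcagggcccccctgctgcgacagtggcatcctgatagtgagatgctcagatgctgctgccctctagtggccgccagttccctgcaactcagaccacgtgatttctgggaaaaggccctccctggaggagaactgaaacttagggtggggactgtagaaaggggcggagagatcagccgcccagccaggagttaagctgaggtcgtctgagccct
IFIT1, BST2 and IFITM1 each held 2 matches, and STAT2 and IRF9 held 0 in these windows. Of the 47 members, 37 had at least 1 window in the RefSeq table (DDX58 under its current symbol RIGI), and 10 did not. GAAANNGAAA lay in 26 of these 37 members (70.3%) and in 1195 of all 27305 genes (4.38%). TTCNNNGAA, the core bound by STAT dimers and searched in the same way, lay in 11 of 37 members (29.7%) and in 2560 of all genes (9.38%). The GAAANNGAAA share was 16 of 22 (72.7%) among members that rose at 48 h in A375 culture and 10 of 15 (66.7%) among the other members with a window. A match is a description of letters in a window and says nothing of binding.

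A log2 change is the difference between group means of log2(normalised reads + 1), given ± SE, and it understates the change of low genes. A gene is called higher or lower where the adjusted p of limma, a linear model with a moderated variance fitted to all genes of the table, was under 0.05. The heat map of log2 changes gives an overview of the 47 members over the comparisons: the A375 48 h column is mostly positive, the other sensitive lines hold both directions, and calls in A375R appear where mixed vehicle tumours are on 1 side of the comparison. Where the text leaves out 1 library of a pair, the lone library is taken to vary like the other groups of its table.

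**Figure D1:**
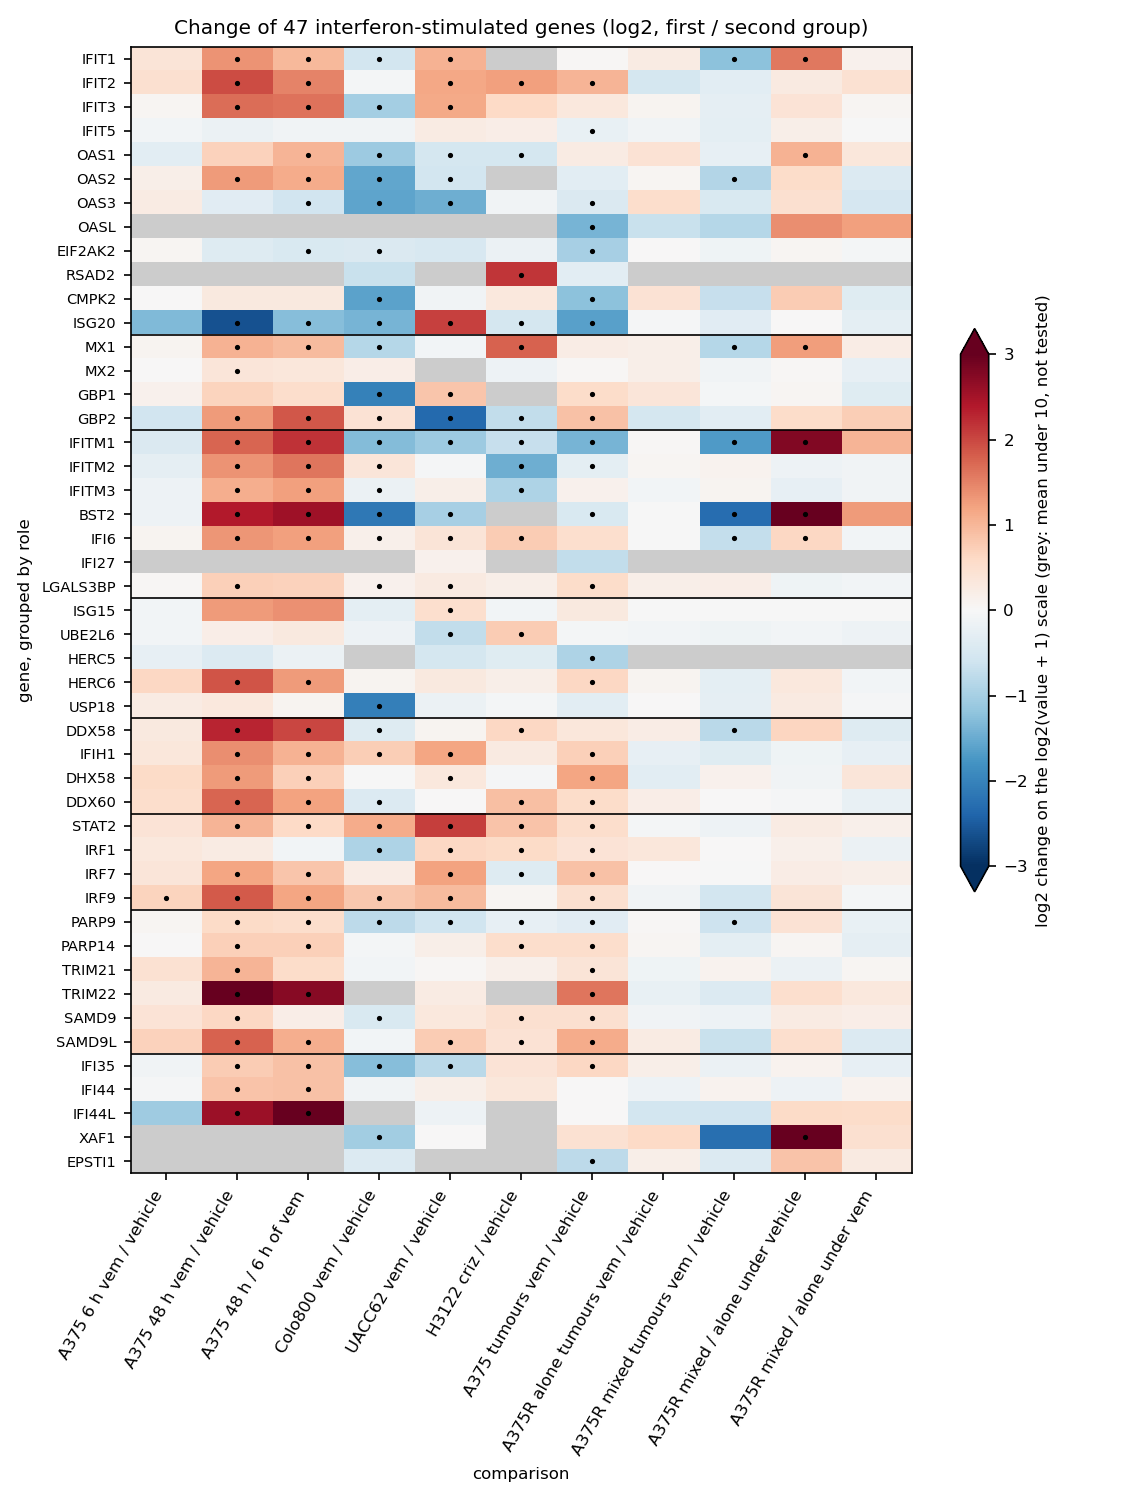
Log2 change of each of the 47 members (vertical axis, grouped by role) in each of 11 comparisons (horizontal axis), coloured from -3 to 3, with values beyond this range drawn in the end colours. A dot marks an adjusted p of limma under 0.05, and grey marks a gene with a table mean under 10. In A375 at 48 h, 30 of 42 tested members were higher, and ISG20 was lower.

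A375 cultures at 6 h of vemurafenib showed few changes among the members. IRF9, the DNA-binding subunit of ISGF3, had 122, 127 and 104 normalised reads in the 3 vehicle libraries and 168, 202 and 188 at 6 h. The groups did not overlap, and IRF9 rose by 0.66 ± 0.14 on the log2 scale (limma adjusted p = 0.026). It was the 1 member called of 42 tested, where 4.4% of all genes were called (1.07% higher, 3.33% lower). The median over members was 0.08 against -0.0001 for all genes, and 9 members had an unadjusted p under 0.05 (7 higher, 2 lower). STAT2, the other subunit specific to ISGF3, had 504, 742 and 621 in vehicle and 721, 904 and 851 at 6 h, which overlapped (0.42 ± 0.15, limma adjusted p = 0.181). IRF7 (0.36, limma adjusted p = 0.511) and IRF1 (0.32, limma adjusted p = 0.469), which amplify and initiate interferon programmes, were not called either. ISG20, an exonuclease that degrades single-stranded RNA, had 659, 1484 and 1677 in vehicle and 321, 529 and 609 at 6 h, without overlap (-1.33 ± 0.37, limma adjusted p = 0.0764). Replicate numbers paired the vehicle and 6 h libraries by the correlation of their deviations, and with the replicate number as a block 8 members were called, where 10.6% of all genes were (3.89% higher, 6.69% lower). These were IRF9, SAMD9L, HERC6, STAT2, SAMD9 and DHX58, which rose, and ISG20 and GBP2, which fell. The IRF9 call without the block was lost in the fit to the vehicle and 6 h groups alone (limma adjusted p = 0.0893). It was lost as well without 6 h library 2 (0.128) or 3 (0.0824) and without vehicle library 2 (0.0532) or 3 (0.0997).

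By 48 h most tested members had risen in A375 cultures. Of 42 tested, 30 were higher and 1 lower (either direction 50% of all genes, higher 24.3%, lower 25.6%), 24 members were at least 2-fold apart, and the median log2 change was 1.07 against -0.0032 for all genes. This comparison shares its vehicle libraries with that at 6 h. DDX58, which encodes the cytosolic RNA sensor RIG-I, had 40.9, 44.5 and 53.6 in vehicle, 58.0, 55.7 and 56.0 at 6 h, and 212, 245 and 233 at 48 h. Every 48 h library lay above all others, and DDX58 rose by 2.29 ± 0.18 (limma adjusted p = 5.97e-06). IRF9 reached 428, 440 and 401 (423 ± 19.96 against 118 ± 11.8 in vehicle, SD, n = 3), and rose by 1.84 ± 0.14 (limma adjusted p = 6.5e-06). IFIT2, a member of the family that binds foreign RNA and blocks its translation, had 71.4, 81.3 and 85.6 in vehicle and 342, 283 and 314 at 48 h. The groups were far apart, and IFIT2 rose by 1.96 ± 0.18 (limma adjusted p = 1.48e-05). IFITM3, which blocks virus entry at endosomal membranes, had 2261, 2294 and 2390 in vehicle, 2006, 2226 and 2015 at 6 h, and 4587, 5326 and 4867 at 48 h. Its 6 h libraries lay below the vehicle libraries and its 48 h libraries above them (48 h against vehicle 1.09 ± 0.10, limma adjusted p = 1.73e-05).

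Among the factors, STAT2 reached 1145, 1252 and 1368 at 48 h and rose by 1.03 ± 0.15 (limma adjusted p = 0.000327). IRF7, the factor that amplifies interferon production, had 47.2, 66.2 and 88.5 in vehicle and 137, 161 and 151 at 48 h, and rose by 1.19 ± 0.24 (limma adjusted p = 0.00214). IRF1 had 148, 123 and 125 in vehicle and 184, 166 and 125 at 48 h, which overlapped (0.25 ± 0.20, limma adjusted p = 0.325).

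By role, the 6 tested membrane and secreted proteins were all higher at 48 h. BST2, or tetherin, which holds budding virus on the cell surface, had 8.40, 32.5 and 17.9 in vehicle and 71.1, 145 and 79.5 at 48 h, and rose by 2.38 ± 0.59 (limma adjusted p = 0.00669). IFITM1, which acts at the cell surface, had 36.7, 39.0 and 35.8 in vehicle and 113, 149 and 122 at 48 h, and rose by 1.75 ± 0.30. IFITM2 (1.34), IFI6 (1.32) and LGALS3BP (0.72), a secreted glycoprotein, rose too. The 4 RNA sensors were all higher: beside DDX58, DDX60 (1.74), IFIH1, which encodes MDA5 (1.39), and DHX58, which encodes LGP2 (1.28). The 6 genes of the ADP-ribosylation, TRIM and SAMD9 group were all higher, from PARP9 (0.58) to TRIM22 (47.5 ± 8.67 against 6.64 ± 5.19, limma adjusted p = 0.00201), a ubiquitin ligase whose vehicle libraries held 1.05, 7.59 and 11.3 and whose 48 h libraries held 43.8, 41.3 and 57.4. TRIM22, like IFI44L (2.58), passed the filter only through the 48 h libraries, where it was high, and so had to differ.

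The effectors that act on RNA and nucleotides were divided. Of 10 tested, 4 rose: IFIT2, IFIT3 (1.68), IFIT1 (1.35) and OAS2 (1.28), a synthetase of the 2-5A signal that activates RNase L. ISG20 fell to 127, 246 and 226 at 48 h, a log2 change of -2.61 ± 0.37 (limma adjusted p = 0.000236), and every 48 h library lay below every vehicle library. OAS1 (0.70), CMPK2 (0.30), OAS3 (-0.33), EIF2AK2, which encodes the kinase PKR (-0.39), and IFIT5 (-0.18) were not called. Of 4 GTPases, MX1 (1.05) and MX2 (0.36), which trap viral nucleocapsids, and GBP2 (1.27) rose, and GBP1 (0.66) was not called. The system that conjugates the ubiquitin-like protein ISG15 gave 1 call in 5: HERC6 (1.89) rose. ISG15 itself had 45.1, 79.2 and 153 in vehicle and 126, 292 and 222 at 48 h, which overlapped (1.29 ± 0.52, limma adjusted p = 0.0599). The calls of MX2, LGALS3BP and IFI35 (0.77) were lost without 48 h library 2 or 3 or vehicle library 1, with adjusted p from 0.0592 to 0.131. Of the markers of other cells at 48 h, 0 of 2 tested leukocyte markers were called. Of 4 plasmacytoid dendritic cell markers TCF4, the 1 tested, rose by 1.71, and the others had a table mean under 10. Of 5 tested fibroblast markers DCN, LUM and PDGFRB rose and PDGFRA fell. Their part in these results was not tested.

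**Figure D2:**
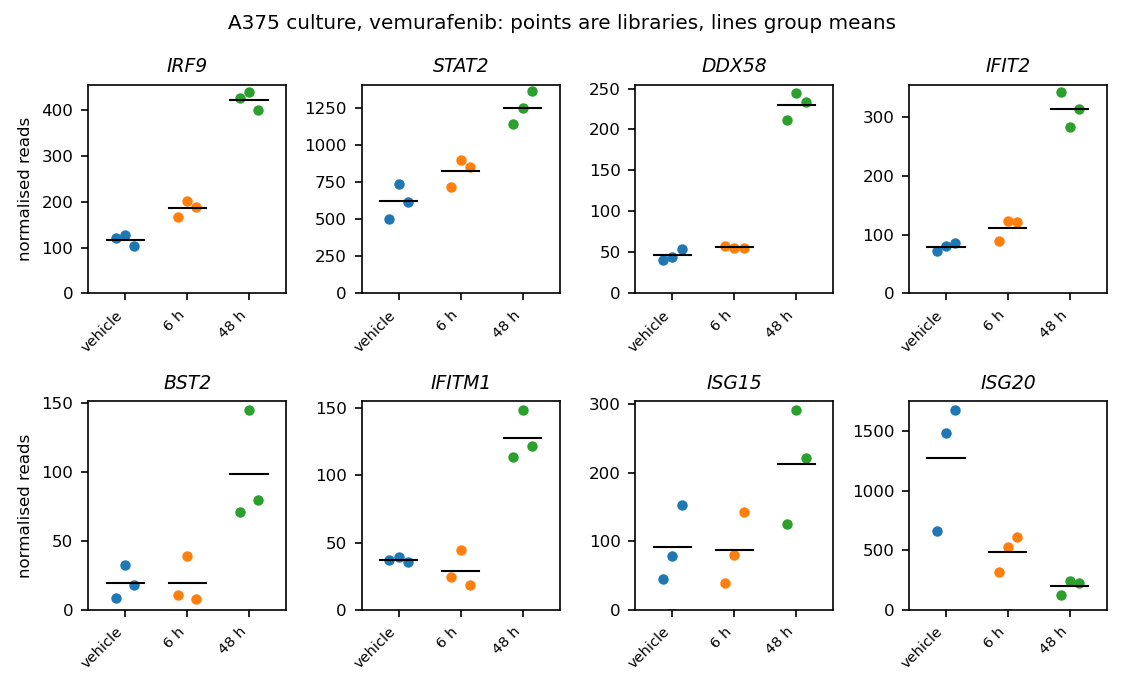
Normalised reads of 8 members in A375 cultures (vertical axes, linear from 0), with 1 point per library and a bar at the mean of 3 libraries, for vehicle, 6 h and 48 h of 0.1 µM vemurafenib. At 6 h the IRF9, DDX58 and IFIT2 libraries lie above every vehicle library, and limma called IRF9 alone of these 3. BST2 and IFITM1 overlap vehicle at 6 h and lie above it at 48 h, ISG15 overlaps at both times, and the ISG20 libraries lie below vehicle at both.

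Between 6 h and 48 h of vemurafenib, 27 of 42 tested members were higher at 48 h and 3 lower (either direction 39.3% of all genes, higher 19.6%, lower 19.7%), with a median of 0.92 against -0.0013 for all genes. IFITM3 (1.24 ± 0.10, limma adjusted p = 1.6e-05), DDX58 (2.00 ± 0.18, limma adjusted p = 2.33e-05), IFITM2 (1.61 ± 0.16, limma adjusted p = 5.03e-05) and IFIT3 (1.62 ± 0.18, limma adjusted p = 8.02e-05) had the smallest adjusted p. The largest difference was that of IFI44L, with 3.93, 0.844 and 2.28 at 6 h and 47.97, 47.5 and 23.2 at 48 h (3.64 ± 0.49). IFI44L, like TRIM22, passed the filter only through its 48 h libraries, and so had to differ. OAS3 (-0.57), EIF2AK2 (-0.46) and ISG20 (-1.29 ± 0.37) were lower at 48 h than at 6 h. This comparison shares its 48 h libraries with the one before. IRF9 (1.183 ± 0.14), IRF7 (0.83 ± 0.24) and STAT2 (0.61 ± 0.15) were all higher at 48 h, while IRF1 was not called (-0.07). The calls of ISG20, OAS3, EIF2AK2 and IRF7 were each lost with some library left out, with adjusted p from 0.0506 to 0.125.

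Colo800 cultures went largely the other way: of 42 tested members 7 were higher and 21 lower with vemurafenib, where 73.3% of all genes were called (36% higher, 37.3% lower), and the median was -0.40 against -0.0003 for all genes. STAT2 had 963 and 826 in vehicle and 1921 and 1957 with drug, and rose by 1.12 ± 0.06 (limma adjusted p = 6.25e-12). IRF9 had 229 and 226 in vehicle and 413 and 385 with drug, and rose by 0.81 ± 0.09 (limma adjusted p = 1.14e-07). Both subunits specific to ISGF3 rose in cells where 21 members fell. IFIH1 (190 and 208 against 333 and 337, 0.75 ± 0.09), GBP2 (197 and 224.4 against 278.5 and 289, 0.43 ± 0.10) and IFITM2 (455 and 546 against 624.8 and 655, 0.36 ± 0.08) rose as well. IFI6 (0.16) and LGALS3BP (0.13) rose by less, and the IFI6 call was lost with DESeq2 (adjusted p = 0.0847), without a filter (0.0524) and without library 1 of either group (0.0788 and 0.163).

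Among Colo800 members that fell, IFI35, a cytosolic regulator of innate signalling, had 1289 and 1312 in vehicle and 537 and 531 with drug, a fall by 1.28 on the log2 scale (SE 0.05, limma adjusted p = 1.77e-13). OAS3, which makes the longest 2-5A chains, had 678 and 660 in vehicle and 215 and 233 with drug (-1.58 ± 0.08, limma adjusted p = 1.65e-12). IFIT3 had 592 and 594 in vehicle and 292 and 289 with drug (-1.03 ± 0.07, limma adjusted p = 3.2e-10). Both libraries of each group lay close together, and the groups did not overlap. GBP1, a GTPase induced most by type II interferon, had 176 and 188 in vehicle and 50.6 and 37.4 with drug (-2.04 ± 0.17, limma adjusted p = 3.24e-09). IRF1, a factor of the type II interferon response, had 307 and 270 in vehicle and 146 and 157 with drug (-0.92 ± 0.11, limma adjusted p = 3.59e-07). IRF7 overlapped, with 80.4 and 106 in vehicle and 99.2 and 118 with drug.

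Of 11 tested effectors on RNA and nucleotides in Colo800, 8 fell and 0 rose, among them CMPK2 (-1.61), OAS2 (-1.55), ISG20 (-1.39) and OAS1 (-1.09). USP18, the protease that removes ISG15 and damps the receptor, had 107 and 114 in vehicle and 29.4 and 23.0 with drug (-2.04 ± 0.20). BST2 had 56.3 and 49.7 in vehicle and 13.2 and 9.59 with drug (-2.14 ± 0.28), and IFITM1 fell by 1.31. The RNA sensors were divided, with IFIH1 higher and DDX58 (-0.39) and DDX60 (-0.40) lower, though the DDX58 call was lost with quantile normalisation (adjusted p = 0.0919), DESeq2 (0.128), no filter (0.0605) or without library 1 of either group (0.191 and 0.0619). Markers of other cells moved in both directions here. The 4 plasmacytoid dendritic cell markers were all at 0 in vehicle. The summed leukocyte markers were between 3938 and 3967 in vehicle and between 2824 and 2834 with drug, mostly from LAPTM5 and CD68. Of 4 tested, LAPTM5 (-1.49) and LYZ (-2.04) fell and CD68 (0.29) rose. Of 4 tested lung epithelial markers KRT8 and KRT18 fell and SFTPC (1.98) rose, and of 4 tested fibroblast markers LUM and PDGFRB fell. Their part in these results was not tested.

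UACC62 cultures held both directions, with 15 of 43 tested members higher and 9 lower (either direction 56.5% of all genes, higher 26.9%, lower 29.6%) and a median of 0.17 against -0.0086 for all genes. The 4 factors were all higher. STAT2 had 962 and 991 in vehicle and 3969 and 4269 with vemurafenib, and rose by 2.07 ± 0.09 (limma adjusted p = 4.43e-07). IRF7 had 60.1 and 73.2 in vehicle and 172 and 137 with drug (1.20 ± 0.19, limma adjusted p = 0.000654). IRF9 had 266 and 346 in vehicle and 627 and 554 with drug (0.95 ± 0.15, limma adjusted p = 0.000659). Drug and vehicle libraries of these 3 genes did not overlap. IRF1 had 61.0 and 61.9 in vehicle and 100.4 and 90.9 with drug (0.63 ± 0.17, limma adjusted p = 0.013), a call that was lost with DESeq2 (0.0706) and without vehicle library 1 (0.0876) or 2 (0.0775).

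In UACC62 the IFIT genes other than IFIT5 rose: IFIT2 from 152 and 165 to 354 and 361 (1.17 ± 0.12, limma adjusted p = 7.21e-05), IFIT3 from 273 and 236 to 581.8 and 536 (1.13 ± 0.12), and IFIT1 by 1.03. IFIT5 had 352 and 369 in vehicle and 404 and 454 with drug and was not called. IFIH1 had 124 and 127 in vehicle and 285 and 283 with drug (1.17 ± 0.13, limma adjusted p = 8.57e-05). ISG20 had 17.6 and 22.7 in vehicle and 90.1 and 81.9 with drug (2.05 ± 0.23, limma adjusted p = 9.93e-05), where it fell in A375, Colo800 and H3122. GBP2 fell from 924 and 951 to 194 and 177 (-2.33 ± 0.11, limma adjusted p = 6.82e-07), while GBP1 rose (0.83). BST2 fell from 2170 and 2156 to 1146 and 1012 (-1.01 ± 0.10, limma adjusted p = 4.96e-05). OAS3 fell from 487 and 570 to 160.5 and 228 (-1.46 ± 0.18, limma adjusted p = 0.00015). UBE2L6, the conjugating enzyme of the ISG15 system, fell from 813 and 805 to 491 and 473 (-0.75 ± 0.10, limma adjusted p = 0.000319), and IFITM1 fell by 1.08. Libraries of a group agreed in these genes, and no vehicle library lay among the drug libraries. CD68, the 1 leukocyte marker tested, rose by 1.48, and of 7 fibroblast markers COL1A1, DCN and LUM rose and PDGFRA fell, and their part was not tested.

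H3122 cultures, which carry another driver and received another drug, also held both directions: 12 of 37 tested members were higher and 8 lower with crizotinib (either direction 46.1% of all genes, higher 22.1%, lower 24%), with a median of 0.19 against -0.0098 for all genes. STAT2 had 574 and 641 in vehicle and 1090 and 1093 with drug, and rose by 0.85 ± 0.09 (limma adjusted p = 2.11e-05). MX1 had 14.7 and 13.7 in vehicle and 49.3 and 52.3 with drug (1.77 ± 0.26, limma adjusted p = 0.000201). IFIT2 had 33.4 and 30.3 in vehicle and 77.5 and 74.9 with drug (1.23 ± 0.20, limma adjusted p = 0.000453). DDX60, a helicase counted among the RNA sensors, had 86.6 and 79.3 in vehicle and 145 and 166 with drug (0.90 ± 0.15, limma adjusted p = 0.000591). The groups of these genes were apart, though MX1 and IFIT2 rest on few reads. RSAD2, or viperin, the antiviral radical SAM enzyme, had 3.94 and 3.91 in vehicle and 19.1 and 22.6 with drug (2.15 ± 0.41, limma adjusted p = 0.00126), and it passed the filter only through the drug libraries, where it was high, and so had to differ.

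Of the other factors in H3122, IRF1 rose from 259 and 265 to 407 and 372 (0.57 ± 0.11, limma adjusted p = 0.00127). IRF9 had 358 and 392 in vehicle and 392 and 395 with drug and was not called (0.07). IRF7 had 411 and 464 in vehicle and 334 and 337 with drug (-0.38 ± 0.11, limma adjusted p = 0.0125), a call lost with DESeq2 (0.0575) and without crizotinib library 1 (0.0776) or 2 (0.0687). The 3 IFITM genes fell, though the IFITM1 call (-0.70) was lost with DESeq2 (0.101) and without crizotinib library 2 (0.12). They were led by IFITM2 from 427 and 430.5 to 167 and 144 (-1.46 ± 0.12, limma adjusted p = 2.07e-06) and IFITM3 from 53.1 and 71.4 to 32.2 and 31.8 (-0.92 ± 0.23, limma adjusted p = 0.0059). ISG20 fell from 238 and 274 to 188 and 167 (-0.52 ± 0.13, limma adjusted p = 0.00646), a call lost without crizotinib library 2 (0.0615), as was that of GBP2 (-0.74 ± 0.20, 0.00997 and then 0.0715). Without that library 11 of 36 tested members were called, 9 higher and 2 lower. With DESeq2 13 of 37 were called, 10 higher and 3 lower, so that most of the 8 lower calls were lost in both. Leukocyte markers moved too, with a summed level of 734 to 786 in vehicle and 82.1 to 84.6 with drug, mostly from LAPTM5. The 3 tested (LAPTM5, CD68 and CD14) fell, while PTPRC, which defines leukocytes, had means of 0.489 and 1.03. Their part in these results was not tested.

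**Figure D3:**
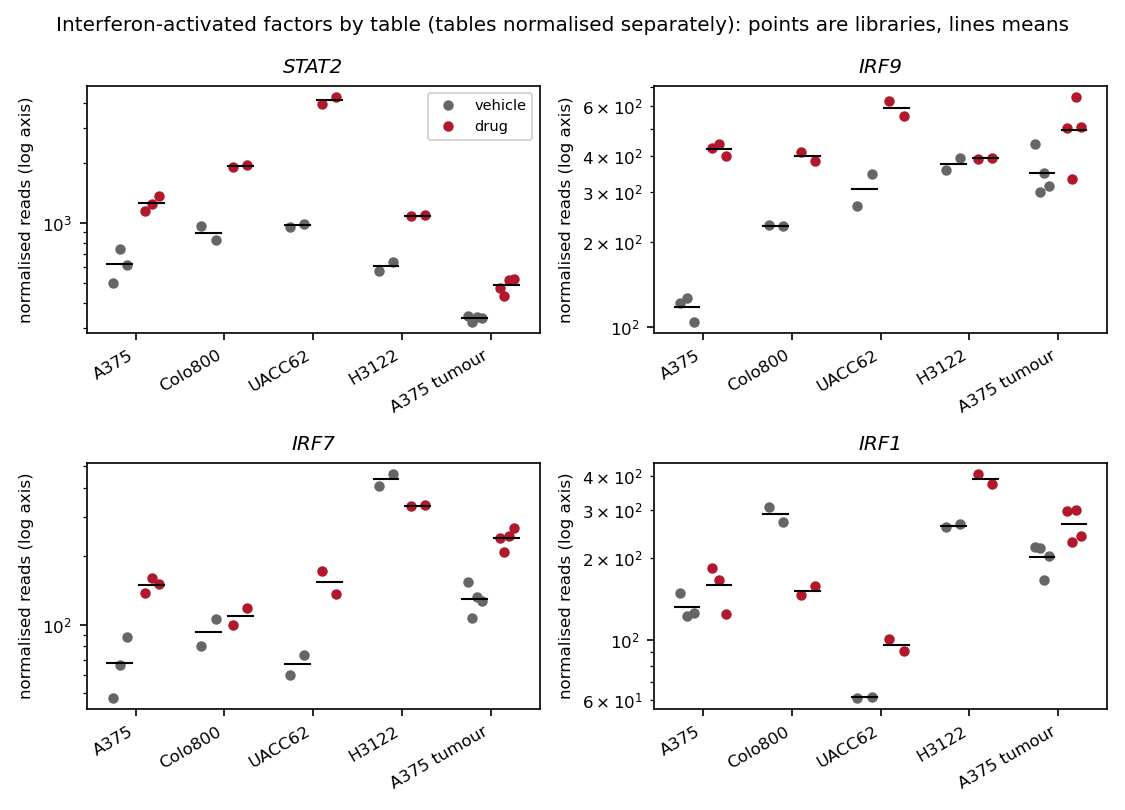
Normalised reads (vertical axis, log scale) of STAT2, IRF9, IRF7 and IRF1 with vehicle and with drug in the 5 sets of sensitive cells (horizontal axis), with 1 point per library and a bar at the mean. The tables were normalised separately, so heights compare only vehicle with drug of the same cells. STAT2 was called higher with drug in each set, and IRF9 in each but H3122.

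A375 tumours, where ribosome-bound RNA was read, had a mean of at least 10 for each of the 47 members. With vemurafenib, 18 were higher and 12 lower (either direction 68.3% of all genes, higher 34.2%, lower 34%), and the median was 0.25 against 0.0026 for all genes. SAMD9L, a tumour suppressor that restricts virus translation, had 157, 149, 128 and 129.5 in vehicle and 285, 262, 349 and 329 with drug, and rose by 1.11 ± 0.12 (limma adjusted p = 2.87e-07). DHX58 had 136, 95.5, 94.2 and 97.5 in vehicle and 246, 220, 236 and 250.2 with drug (1.179 ± 0.13, limma adjusted p = 4.39e-07). GBP2 had 263, 279, 320 and 299.8 in vehicle and 503, 524, 665 and 459.9 with drug (0.88 ± 0.11, limma adjusted p = 2.28e-06). Each of these 3 genes had its 4 vemurafenib libraries above its 4 vehicle libraries.

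The 4 factors were higher in treated A375 tumours. IRF7 had 154, 107, 133 and 127 in vehicle and 241, 208, 245 and 268 with drug (0.89 ± 0.13, limma adjusted p = 8.5e-06). STAT2 had 345, 321, 340.0 and 335 in vehicle and 473, 432, 520.4 and 527 with drug (0.54 ± 0.09, limma adjusted p = 4.32e-05). IRF1 had 218, 218, 166 and 202 in vehicle and 296, 229, 301 and 241 with drug (0.40 ± 0.12, limma adjusted p = 0.00728). These 3 did not overlap. IRF9 had 439, 299, 349 and 313 in vehicle and 502, 332, 644 and 506 with drug, which overlapped (0.48 ± 0.16, limma adjusted p = 0.0142), and its call was lost without vemurafenib library 3 (0.0632).

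ISG20 had the smallest adjusted p of the members in A375 tumours: 1214, 1365, 1213 and 1416 in vehicle and 447, 451, 407 and 387 with drug, a fall by 1.62 on the log2 scale (SE 0.08, limma adjusted p = 4.39e-11). IFITM1 had 1047, 935, 924 and 945 in vehicle and 335, 218, 419.9 and 561 with drug (-1.41 ± 0.19, limma adjusted p = 5e-06). EIF2AK2 had 566, 435, 560.3 and 332 in vehicle and 189, 183, 271 and 307 with drug (-0.997 ± 0.18, limma adjusted p = 9.59e-05). CMPK2, a mitochondrial nucleotide kinase next to RSAD2 in the genome, had 146, 109.6, 121 and 109 in vehicle and 36.3, 35.5, 67.5 and 77.8 with drug (-1.22 ± 0.22, limma adjusted p = 0.000131). The groups of these 4 genes did not overlap. BST2 had 1661, 1433, 1524 and 1720 in vehicle and 929.5, 837, 1249 and 1766 with drug, so that vemurafenib library 4 lay among the vehicle libraries (-0.47 ± 0.16, limma adjusted p = 0.0184). The BST2 call was lost with DESeq2 (0.156), without vemurafenib library 1 (0.0657) or 2 (0.0812) and without vehicle library 4 (0.0558).

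Of 12 effectors on RNA and nucleotides, IFIT2 (1.01 ± 0.16) was the 1 that rose in A375 tumours and 6 fell, while 5 of 6 genes of the ADP-ribosylation, TRIM and SAMD9 group rose, TRIM22 by 1.60 ± 0.30. Several uncalled members were spread widely within a group. MX1 had 253, 153.5, 158 and 143 in vehicle and 162, 129, 275 and 275 with drug, and IFIT1 had 253, 109.6, 222 and 94.6 in vehicle and 130.2, 85.3, 256 and 220 with drug. Vehicle library 1 and vemurafenib libraries 3 and 4 were high in both genes, which were singled out after their values were seen. Without vehicle library 1, 24 members were higher and 8 lower, and 26 of the 30 calls were kept. Without vemurafenib library 2, 22 were higher and 7 lower, and 24 of the 30 were kept. Of all genes, 9204 and 9057 were called in these 2 fits, against 9603 in the main fit.

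Markers of other cells moved with the drug in A375 tumours. Of 5 tested leukocyte markers, CSF1R (-3.85), FCER1G (-4.32), LAPTM5 (-2.65) and LYZ (-0.73) fell and CD68 (0.49) rose, and the summed level of all 17 was between 748 and 965 in vehicle and between 682.5 and 1062 with drug, mostly from CD68. PTPRC had means of 0.528 in vehicle and 0.828 with drug. TCF4, the 1 plasmacytoid dendritic cell marker tested, fell by 1.38 on the log2 scale, and CLEC4C was at 0 in both groups. Of 7 fibroblast markers COL1A2, PDGFRA and PDGFRB fell and COL3A1 (2.66) rose. The part of these cells in the members' values was not tested.

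The same line in culture and in tumours gave different directions for some members, in tables with different RNA and no shared library. IFITM1 rose by 1.75 at 48 h in culture and fell by 1.41 in tumours, BST2 rose by 2.38 and fell by 0.47, and PARP9 rose by 0.58 and fell by 0.33, a tumour call lost without vemurafenib library 1 or 2 or vehicle library 1 or 3 (adjusted p from 0.0538 to 0.128). IFIT1 rose by 1.35 in culture and was not called in tumours (0.02). The difference between the settings was not tested. ISG20, STAT2, IRF7, DHX58, SAMD9L and TRIM22 had the same direction in both.

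**Figure D4:**
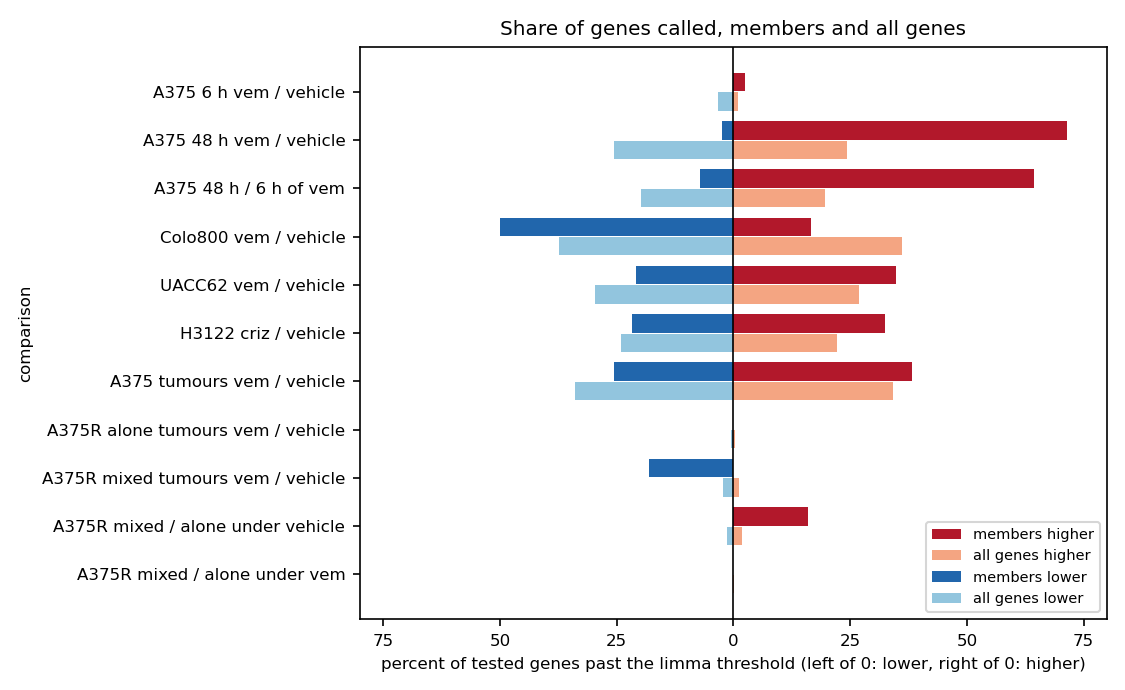
Percent of tested genes called higher (to the right of 0) and lower (to the left) by limma in each comparison, for the tested members and for all tested genes of the table. In A375 culture at 48 h the members' higher share lies above the 24.3% of all genes, and in Colo800 their lower share lies above 37.3%.

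Over the 5 comparisons of drug with vehicle in sensitive cells (A375 at 48 h, Colo800, UACC62, H3122 and A375 tumours, of which 2 are the same line), 34 members were tested in each. STAT2 was the 1 member called higher in all 5, by 0.54 to 2.07, and IRF9, IFIT2, IFI6, LGALS3BP, IFIH1 and SAMD9L were called higher in 4. OAS1 and OAS3 were called lower in 3 and higher in none. ISG20, IFITM1 and PARP9 were each lower in 4 and higher in 1, which was UACC62 for ISG20 and A375 culture for the other 2. In all, 19 members were called in both directions in different cells, and IFI27, tested in 2, was called in none. Between 46.1% (H3122) and 73.3% (Colo800) of all genes were called in each of these comparisons, with near-equal shares higher and lower. How many of all genes were called alike, or in both directions, over the 5 was not counted. These counts are therefore not set apart from those of other genes.

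The other genes of the pathway give the setting of these values. Their counts stand beside the shares of all genes called higher and lower, which were 24.3% and 25.6% in A375 at 48 h, 36% and 37.3% in Colo800, 26.9% and 29.6% in UACC62, 22.1% and 24% in H3122, and 34.2% and 34% in A375 tumours. No interferon gene of 14 listed reached a mean of 10 over the table in any culture, and the leading one was IFNE, an epithelial type I interferon. It had means of 12.75 normalised reads in H3122 vehicle cultures and 5.08 with crizotinib, and of 7.82 in A375 vehicle cultures and 4.73 at 48 h. In A375 tumours IFNE was 78.8 in vehicle and 61.4 with vemurafenib (-0.36 ± 0.15, limma adjusted p = 0.0429), and IFNB1 was at 0. Of 9 receptor subunits and kinases, 4 rose and 2 fell in A375 at 48 h, 4 rose and 2 fell of 8 tested in Colo800, 3 rose and 2 fell of 8 in UACC62, 4 fell of 9 in H3122, and 1 rose and 4 fell of 9 in A375 tumours. IFNGR2, a chain of the type II interferon receptor, was lower in each of these: in A375 culture it was 1376 ± 174 in vehicle and 490.1 ± 38.2 at 48 h (-1.48 ± 0.14, limma adjusted p = 1.61e-05), and already 515 at 6 h (-1.41, limma adjusted p = 0.000258). Its change was -1.61 in Colo800, -0.92 in UACC62, -0.42 in H3122 and -0.68 in A375 tumours.

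Of 12 nucleic acid sensors and their adaptors, TLR3, an endosomal receptor of double-stranded RNA, and TREX1, an exonuclease that clears cytosolic DNA, had risen in A375 at 6 h (1.14 ± 0.21 and 0.98 ± 0.19, limma adjusted p = 0.0126 and 0.0168). At 48 h 5 of 11 tested were higher and 1 lower, with TLR3 (1.86), SAMHD1 (1.40), a dNTP hydrolase, and TMEM173, which encodes STING (0.94), leading. In Colo800 TLR3 fell (-1.30), and in H3122 it rose (1.63) while TMEM173 fell (-0.87). Of the 6 inhibitors of the pathway, 4 of 5 tested fell in A375 tumours and 1 rose. SOCS3, a feedback inhibitor of JAK kinases, went from 2169 to 629 (-1.79 ± 0.10, limma adjusted p = 1.47e-10), and SOCS1 from 175 to 26.1 (-2.74 ± 0.21, limma adjusted p = 6.48e-09). In Colo800 4 of 5 fell as well, with SOCS3 at -1.46, and 1 rose. Elsewhere falls were fewer: 1 of 4 fell and 0 rose in A375 at 48 h. In UACC62 1 of 5 fell and 1 rose, and in H3122 1 of 5 fell and 0 rose.

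A second list held 26 other interferon-induced genes outside the 47. In A375 cultures 1 of 21 tested was higher at 6 h (1.07% of all genes), and 12 were higher and 0 lower at 48 h (24.3% and 25.6%), among them APOL1 (1.46), APOL6 (1.10) and SP100 (0.63), a nuclear body protein. In Colo800 4 of 21 were higher and 15 lower (all genes 36% and 37.3%), and in UACC62 2 of 22 were higher and 8 lower (26.9% and 29.6%). In H3122 4 of 21 were higher and 2 lower (22.1% and 24%), and in A375 tumours 10 of 22 were higher and 6 lower (34.2% and 34%). IFI30, a lysosomal thiol reductase, fell by 2.11 in UACC62 and by 1.51 in A375 tumours, where RTP4, a chaperone of receptors, rose by 2.17.

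A375R tumours grown alone showed no called change of the members with vemurafenib: limma called 0 of 44 tested, where it called 0.792% of all genes (0.305% higher, 0.487% lower), and 3 had an unadjusted p under 0.05 (2 higher, 1 lower). The median was 0.03 against 0.01 for all genes. The count models edgeR and DESeq2, run on recovered reads, also called 0, though DESeq2 gave no adjusted p for 7 members. STAT2 had 228, 247 and 205 in vehicle and 211, 197 and 249 with drug, and BST2 had 6.71, 9.03 and 16.7 in vehicle and 9.27, 7.47 and 14.3 with drug. Both overlapped.

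In vehicle-treated mixed tumours, 7 of 44 tested members were higher than in A375R tumours grown alone and 0 lower, where 3.3% of all genes were called (1.93% higher, 1.37% lower). BST2 had 6.71, 9.03 and 16.7 in the alone libraries and 157, 142 and 95.9 in the mixed libraries (10.8 ± 5.22 and 132 ± 31.7, SD, n = 3). The lowest mixed library stood far above the highest alone library, and BST2 was higher by 3.55 ± 0.37 (limma adjusted p = 7.42e-05). IFITM1 had 15.7, 15.6 and 20.3 alone and 145, 130.2 and 95.9 mixed (2.77 ± 0.33, limma adjusted p = 0.000228). IFIT1 had 33.6, 32.8 and 21.4 alone and 89.2, 94.4 and 82.7 mixed (1.59 ± 0.24, limma adjusted p = 0.00139). MX1 had 82.8, 60.8 and 57.2 alone and 169, 161 and 146 mixed (1.25 ± 0.19, limma adjusted p = 0.00148). None of these 4 genes overlapped between alone and mixed vehicle tumours.

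Of the remaining calls, OAS1 had 53.7, 62.4 and 40.5 alone and 118, 115 and 88.8 mixed (1.04 ± 0.22, limma adjusted p = 0.0161), and IFI6, a mitochondrial and ER protein, differed by 0.62 ± 0.16 (limma adjusted p = 0.0481). XAF1, a proapoptotic gene, had 8.95, 1.64 and 2.38 alone and 43.7, 63.3 and 31.7 mixed (3.35 ± 0.75, limma adjusted p = 0.0227), and it passed the filter only through the mixed vehicle libraries, and so had to differ. The factors were not called: STAT2 was 0.24 apart (limma adjusted p = 0.376), IRF9 0.39 (0.164, without overlap), IRF7 0.21 (0.492) and IRF1 0.16 (0.71). ISG15, with 378, 423 and 371 alone and 303, 436 and 447 mixed, overlapped and had like means (390.5 ± 28.3 and 395 ± 79.96, SD, n = 3). The median over the tested members was 0.26 against -0.0035 for all genes. Without mixed library 1, 4 members were called: BST2 (3.41, limma adjusted p = 0.00121), IFITM1 (2.64, 0.00319), IFIT1 (1.59, 0.012) and MX1 (1.20, 0.0133). Without alone library 3, 4 were called as well. Of all genes, 109 were called without mixed library 1 and 153 without alone library 3, against 454 in the main fit. The IFI6 call was also lost with quantile normalisation (0.0747).

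**Figure D5:**
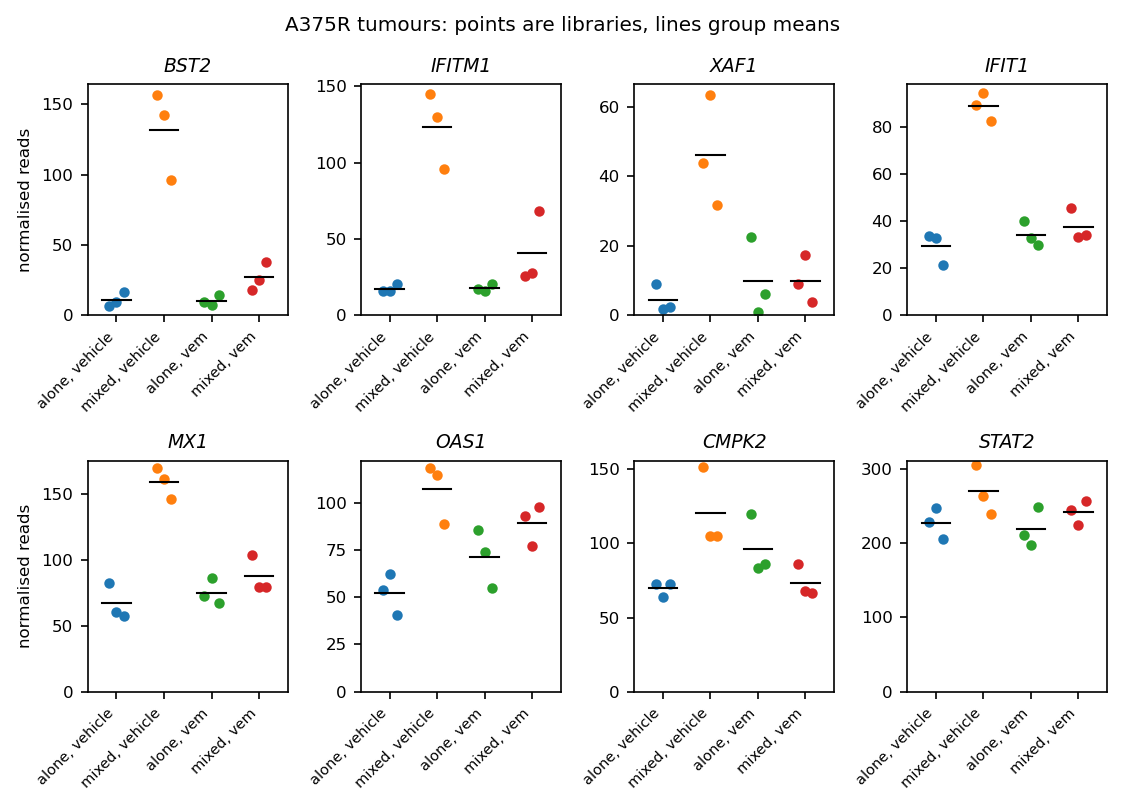
Normalised reads of 8 members in A375R tumours (vertical axes, linear from 0), with 1 point per library and a bar at the mean of 3 libraries, for tumours of A375R alone or mixed with A375, with vehicle or vemurafenib. BST2, IFITM1, IFIT1 and MX1 have each of their 3 mixed vehicle libraries above every library of the other groups, and STAT2 overlaps.

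Some genes that are high in A375 and low in A375R also differed between mixed and alone vehicle tumours. In A375 vehicle tumours BST2 had a mean of 1585 and IFITM1 of 963, in a table normalised separately. A list of 22 genes with a mean of at least 500 in A375 vehicle tumours and at most 10 in A375R alone vehicle tumours, chosen after values were seen, summed to between 78.6 and 86.2 in the alone vehicle libraries, to 2142, 770.4 and 684 in the mixed vehicle libraries, to between 88.0 and 145 in alone vemurafenib libraries and to between 206 and 214 in mixed vemurafenib libraries. Of the 22, 10 had every mixed vehicle library above every alone vehicle library, and 3 were at 0 throughout the A375R table. The list was chosen on low values in these same alone vehicle libraries. Their low sums, and part of the gap to the mixed vehicle libraries, follow from that choice. The share of all genes with such a gap was not counted. SOX10, a melanocyte factor, was 789 in mixed and 100.8 in alone vehicle tumours, and S100B was 114.5 against 16.9. The part of A375 RNA in the members' values was not tested. Leukocyte markers had a summed level of 3482 to 5120 in mixed and 7649 to 9852 in alone vehicle tumours, nearly all from CD68 (-1.05, limma adjusted p = 0.00867). Of the 4 other leukocyte markers tested, LYZ was higher in mixed tumours (1.68, limma adjusted p = 0.0112) and CSF1R, FCER1G and LAPTM5 were not called. PTPRC, which defines leukocytes, was at 0 in the mixed vehicle libraries. Of 4 plasmacytoid dendritic cell markers, CLEC4C, IL3RA and LILRA4 were at 0 in every A375R group. TCF4, the other marker, had means from 558.8 in alone vehicle tumours to 692.5 in mixed vehicle tumours.

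With vemurafenib, mixed A375R tumours had lower levels of 8 of 44 tested members and higher levels of 0 than mixed tumours with vehicle (either direction 3.48% of all genes, higher 1.24%, lower 2.23%). The comparison shares the mixed vehicle libraries with the one above, and its median was -0.29 against 0.01 for all genes. BST2 went to 17.9, 25.3 and 37.5, a fall by 2.28 on the log2 scale (SE 0.37, limma adjusted p = 0.0034). IFITM1 went to 26.0, 27.6 and 68.6 (-1.70 ± 0.33, limma adjusted p = 0.00902), and IFIT1 to 45.5, 33.4 and 33.9 (-1.23 ± 0.24, limma adjusted p = 0.0102). For these 3 genes every treated mixed library lay below every vehicle mixed library. PARP9, which acts with the ubiquitin ligase DTX3L, had 255, 279.5 and 254 in vehicle and 177, 169 and 166 with drug (-0.62 ± 0.12, limma adjusted p = 0.011). DDX58 (-0.82), OAS2 (-0.89), MX1 (-0.86) and IFI6 (-0.71) fell too, while STAT2 (-0.15), IRF9 (-0.55 ± 0.15, limma adjusted p = 0.0514) and the other factors were not called. Without mixed vehicle library 1, 3 members were called (BST2 at -2.14, limma adjusted p = 0.0345), and IFITM1 (0.0676) and IFIT1 (0.0561) were not. Without mixed vemurafenib library 3, 5 were called, and PARP9 lost its call in the fit to the mixed groups alone (0.0528). Of all genes, 96 were called without mixed vehicle library 1 and 256 without mixed vemurafenib library 3, against 478 in the main fit.

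The difference between the drug responses of mixed and alone A375R tumours was itself tested. It was called for 5 of 44 members, each with the lower response in mixed tumours (either direction 2.89% of all genes, higher 1.91%, lower 0.974%): BST2 (-2.27 ± 0.53, limma adjusted p = 0.034), IFIT1 (-1.47 ± 0.34, 0.0351), DDX58 (-1.05 ± 0.25, 0.0365), CMPK2 (-1.13 ± 0.29, 0.0456) and MX1 (-1.04 ± 0.27, 0.0497). CMPK2 shows how both tumours enter, with 72.7, 64.0 and 72.7 in alone vehicle, 119.7, 83.1 and 86.1 in alone vemurafenib, 151, 105 and 105 in mixed vehicle and 86.0, 67.9 and 66.8 in mixed vemurafenib libraries. Its alone libraries were higher with drug and its mixed libraries lower, without overlap in either, though neither change was called by itself. The median over members was -0.29 against -0.02 for all genes. No member was called without mixed vemurafenib library 2, mixed vehicle library 1, alone vemurafenib library 1 or 2, or alone vehicle library 1 or 3. In these fits, in the same order, 160, 40, 152, 48, 15 and 10 of all genes were called, against 397 in the main fit. There were 2 called without mixed vemurafenib library 3, mixed vehicle library 2 or alone vehicle library 2, and 7 at most with 1 library left out.

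Under vemurafenib, no member was called between mixed and alone A375R tumours. Limma called 0 of 44 (0.24% of all genes, 0.211% higher and 0.0291% lower), edgeR and DESeq2 also called 0, and 6 had an unadjusted p under 0.05 (4 higher in mixed, 2 lower). BST2 was 1.28 ± 0.37 apart (limma adjusted p = 0.204) and IFITM1 1.02 ± 0.33 (0.242), both higher in mixed tumours. The mixed and alone libraries of these genes did not overlap, so the lack of a call does not show equal levels. The median was -0.04 against -0.01 for all genes. The 26 further induced genes had no call with drug or between the 2 kinds of tumour, and in the difference of drug responses IFI30 was called at 0.96. IFNE was tested in A375R and not called, with means of 32.6 in alone and 43.9 in mixed vehicle tumours, and IFNB1 was at 0 in each A375R group.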

How the data were processed

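RNA was sequenced in 41 libraries of 15 groups with an unstranded Illumina TruSeq kit, per the labels' protocols, from whole cultured cells or from ribosomes of tumours. The 6 deposited tables give a signal for each gene symbol in each library: the read count after the authors' division by that library's size factor. STAR 2.3.0e, HTSeq 0.5.4 and DESeq 1.18.0 stand in the submitters' processing notes beside 2 builds, hg19 and mm9, with no role given to any of them. How mouse reads were handled is not given in the sources read. Reads were recovered from the smallest step of each library's values (100% whole within 0.1). Replicate pairs differed by more than counting noise, with a chi-square per degree of freedom of 1.30 to 52.8, and each library was counted as 1 replicate.

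Groups were taken from sample titles. Within each table, limma 3.58.1 in R 4.3.3, with a trend in the variance, was fitted to log2(value + 1) of every gene with a mean of at least 10, using all of the table's libraries. P-values are two-sided and adjusted by Benjamini-Hochberg over all genes tested, with a threshold of 0.05. Alternatives were pseudocounts of 0.5 and 5, no filter, a mean of at least 50, quantile normalisation, a replicate block, the compared groups alone, edgeR 4.0.16 and DESeq2 1.42.0 on recovered reads, and each library left out. Of all genes, edgeR called 6896 in A375 at 48 h and 441 between mixed and alone A375R vehicle tumours, where limma called 6903 and 454. The main limma fit alone was run on simulated data with a single fixed dispersion. This covered A375 at 48 h, Colo800, A375 tumours and mixed against alone A375R vehicle tumours. The alternatives and the difference of drug responses were not simulated.

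Any member may be named. In each direction up to 4 members of smallest adjusted p, and STAT2, IRF9, IRF7 and IRF1, are given in full in each comparison, and up to 3 genes per pathway list past the threshold are named. Members and lists were chosen with earlier results of these data known. Replicate numbers pair libraries where every same-numbered pair correlates above 0.1 in deviations from group means. In A375 culture the 3 correlations were 0.567, 0.31 and 0.566 between vehicle and 6 h libraries, 0.436, 0.197 and 0.41 between 6 h and 48 h, and 0.402, 0.028 and 0.32 between vehicle and 48 h, so the first 2 comparisons count as paired. No comparison in the other tables met the rule.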

Additional observations from a re-analysis of the deposited data

Results flagged for a closer look

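In A375 tumours, 9 of 94 groups of 4 libraries (9.57%) held a library far from the others, where chance gives about 1 in 20. Vehicle library 1 was the high library in 8 of these. It had 298 normalised reads of OAS1 (the others 162 to 181), 253 of MX1 (143 to 158), 1047 of IFITM1 (924 to 945), 1998 of IFI6 (945 to 1085), 702 of ISG15 (362 to 394), 196 of DDX58 (134 to 139), 136 of DHX58 (94.2 to 97.5) and 208.5 of XAF1 (81.5 to 99.8). Vemurafenib library 3 had 313 of IFIT2, with the others at 183 to 204.

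The drug response of A375R tumours differed between mixed and alone tumours, by limma's test of the difference, for BST2 (-2.27), IFIT1 (-1.47), CMPK2 (-1.13), DDX58 (-1.05) and MX1 (-1.04). IFITM1 moved in opposite directions in the same line, by 1.75 at 48 h in A375 culture and by -1.41 in A375 tumours, with no overlap between vehicle and drug libraries in either. That difference was not tested, since the tables were normalised separately and hold different RNA.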

How the results depend on the processing

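Of 184 calls of members over the comparisons, 129 held in every alternative that gave a value, and no call changed direction. The number of members called at 6 h in A375 culture was 1, and it was 0 in the fit to the compared groups alone, 5 with DESeq2 and 0 to 2 with each library left out. In H3122 it went from 20 to 13 with DESeq2 and to between 11 and 21 with a library left out. For mixed against alone A375R vehicle tumours the 7 calls became 2 at a mean of at least 50, where BST2, IFITM1, IFIT1 and XAF1 were not tested, 11 with DESeq2 and 4 to 7 with a library left out. For vemurafenib in mixed A375R tumours, the 8 calls were 3 to 8 with a library left out. The 5 calls on the difference of drug responses became 0 without a filter, 3 at a mean of at least 50, 2 with quantile normalisation, 10 with DESeq2 and 0 to 7 with a library left out. With a library left out, the calls were 28 to 32 in A375 at 48 h, 25 to 30 for 48 h against 6 h, 26 to 30 in Colo800, 17 to 28 in UACC62 and 26 to 32 in A375 tumours. Beyond fewer genes or libraries entering a fit, the cause was not tested.

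With the replicate number as a block, 8 members were called at 6 h in A375 culture, 34 at 48 h, 34 for 48 h against 6 h, 28 in Colo800, 26 in UACC62, 19 in H3122, 32 in A375 tumours, 1 in A375R tumours alone (OAS3, higher), 11 for vemurafenib in mixed tumours, 10 for mixed against alone under vehicle, 0 under vemurafenib and 9 for the difference of responses. Over all genes the block called, in the same order, 1462, 8307, 6903, 9936, 8104, 5381, 9253, 298, 494, 512, 65 and 530. The pairing check supports the block only for vehicle with 6 h and 6 h with 48 h in A375 culture. As a hint from the data and not the design, 4 of 6 A375 vehicle and 48 h libraries, 2 of 8 libraries of A375 tumours and 2 to 4 of 6 in the A375R comparisons correlated best with their own number. In H3122 the numbers correlated at -0.209, and a crossed block, chosen after seeing the data, called 24 members and 8522 of all genes. Depth limits the low members, such as BST2 in A375R tumours grown alone, more than the others.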

Other observations

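Members under a table mean of 10 were not tested in the main fit, and some of them were spread unevenly over A375R tumours. Without a filter, limma called 7 of 47 members and 458 of all genes for mixed against alone vehicle tumours. Of these 7 members, 6 were called in the main fit as well. HERC5, the main ligase of the ISG15 system, had 1.12, 0.821 and 2.38 normalised reads in alone vehicle libraries and 18.2, 9.56 and 14.9 in mixed vehicle libraries. RSAD2 had 2.24, 6.57 and 4.77 in alone and 24.6, 15.5 and 12.3 in mixed vehicle libraries, and IFI27, a mitochondrial protein, had 8.95, 5.75 and 5.96 in alone and 11.8, 26.3 and 17.6 in mixed ones. None of the 3 overlapped between these groups, and all 3 rest on few reads. Of the 44 tested members, 18 likewise had every mixed vehicle library above every alone vehicle library, while limma called 7. The share of all genes without overlap was not counted. With vemurafenib, mixed libraries had 1.62, 3.45 and 3.66 of HERC5 and alone libraries 1.54, 1.87 and 2.39. In A375 vehicle tumours, in a separately normalised table, HERC5 had a mean of 51.7, RSAD2 of 33.0 and IFI27 of 121, with IFI27 at 244 in library 1 and between 59.7 and 113 in the others.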
